A study of Mus musculus with 6 samples.

Results

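The transcript profile of untreated RAW264.7 cells is described here from the 3 libraries labelled control, of 6 libraries in the series. The libraries were chosen by their label alone, and all 25124 gene symbols of the deposited table were read in them. RAW264.7 is an adherent, macrophage-like mouse line from a tumour raised with Abelson murine leukaemia virus, so it is an immortal, dividing tumour line and not a primary macrophage. The other 3 libraries, labelled E4BP4 knockout, were not used. Control cells received no treatment and grew as a monolayer in medium with 25 mM glucose, 10% foetal bovine serum and 1% penicillin-streptomycin at 37 °C and 5% CO2, at fewer than 15 passages. Polyadenylated RNA was taken from 200 ng of total RNA. Whether the control cells were parental, mock-edited or 1 clone, and whether the replicates were separate cultures, the sources used here do not state; the spread between libraries may therefore be technical. With a single group there is no test between groups: levels are a description, and a pair of genes is taken as separate only where their 3 library values do not overlap.

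Macrophages engulf particles and dying cells, degrade them in lysosomes, sense microbial molecules through Toll-like and cytosolic receptors, and present antigen. Their identity rests on the transcription factor PU.1, encoded by Spi1, and on the growth factor receptor encoded by Csf1r. In culture without a stimulus, genes for phagocytosis and lysosomes are usually active, while many inflammatory genes wait for a signal.

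The values are TPM (transcripts in a total scaled to 1000000), which are divided by transcript length, so levels of different genes can be set side by side. A symbol counts as expressed where all 3 libraries reached 1 TPM, listed at 0 where all 3 read 0, and low otherwise. Values given after ± are SD over the 3 control libraries. By these limits 10934 of the 25124 symbols (43.5%) were expressed, 7230 (28.8%) were low and 6960 (27.7%) were listed at 0. The median was 0.246 TPM over all symbols and 17.2 TPM over the expressed ones. Every count and median of a list or family below is to be read against this 43.5% and this 0.246 TPM. Protein-coding symbols were expressed in 10293 of 20870 cases (49.3%), against 534 of 3761 noncoding RNA symbols (14.2%) and 55 of 357 pseudogenes (15.4%). Of 1216 microRNA intervals, 142 counted as expressed. Their median length was 73 bases and their median was 8 reads, as the mean of the 3 libraries, so few reads pass the limit there. On single chromosomes the share of symbols expressed ran from 30.1% on X and 37.03% on chromosome 7 to 51.4% on chromosome 11, with 1 of 51 symbols (1.96%) on Y.

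Recovered reads came to 18110568, 18104946 and 15615639 in control replicates 1, 2 and 3. The libraries resembled each other closely, with Pearson correlations of 0.9974 to 0.9977 across the 25124 symbols on log2(TPM + 1), where genes are not independent replicates. No pair agreed within sampling noise (chi-square per degree of freedom 2.18 to 5.73), so all 3 were counted. Among the 7159 symbols with a mean of at least 10 TPM the median coefficient of variation was 4.45%, and 92.8% had a highest-to-lowest ratio under 1.2. Controls 1 and 2 stood apart in opposite directions by transcript length. For transcripts under 1000 bases the TPM of control 1 was a median of 1.03 times the 3-library mean, against 0.963 for control 2. Control 1 was the highest library for 57.9% of these 775 genes. For transcripts of 8000 bases and over the medians were 0.918 in control 1 and 1.07 in control 2. Control 2 was the highest library for 93.8% of these 177 genes. Control 3 lay between them, at 1.001 and 1.01 times the mean. The part of this length trend in the differences between the replicates given below was not tested.

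Abundance was spread over many genes. The most abundant symbol held 0.952% ± 0.0606 of the listed TPM, the top 10 held 5.81% ± 0.142, the top 100 held 23.4% ± 0.653 and the top 1000 held 59.2% ± 0.758. Only 59 symbols reached 1000 TPM, and they carried 17.4% of the listed TPM. The 1008 symbols between 100 and 1000 TPM carried 43.1%, and the 6092 between 10 and 100 TPM carried 35.9%. The 6989 symbols above 0 but under 1 TPM together held 0.185%. The first 608 symbols by rank covered 50% of the listed TPM and the first 4802 covered 90%.

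**Figure D1:**
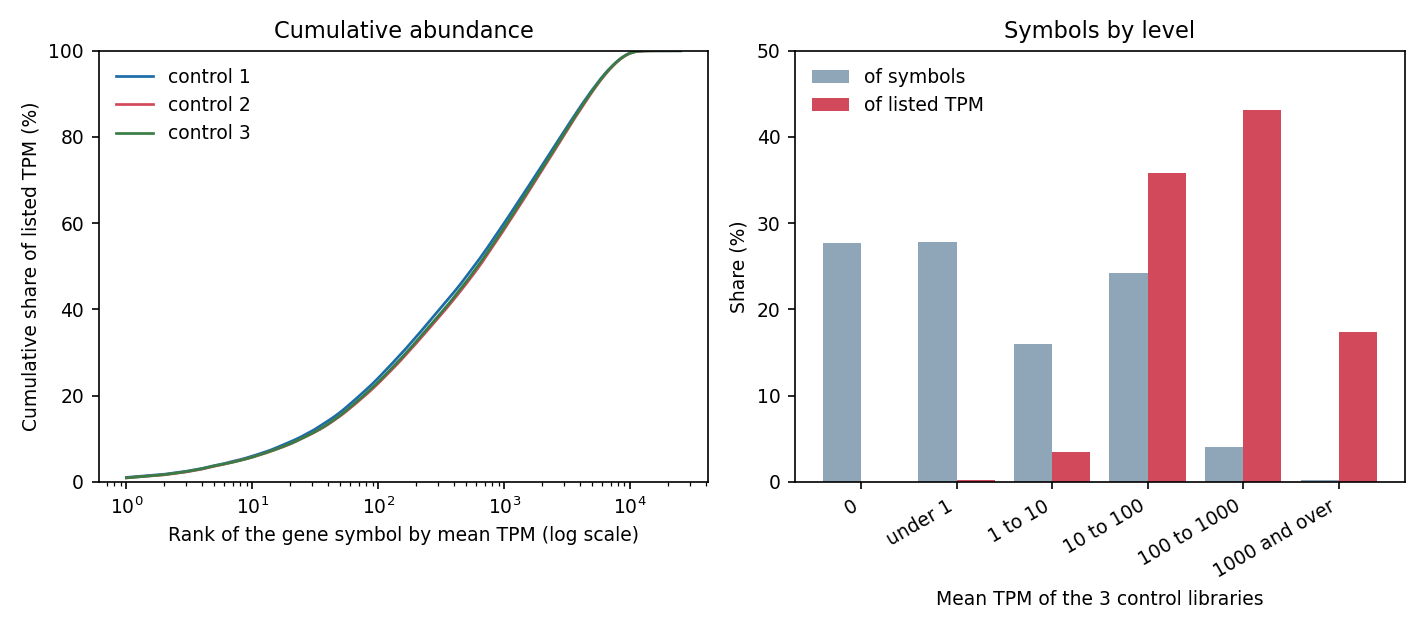
Left, the cumulative share of listed TPM (%) against the rank of the symbol by mean TPM (log scale), with 1 line for each of the 3 control libraries. Right, the share (%) of symbols and of listed TPM in each range of mean TPM. The 3 lines nearly coincide, and the 1067 symbols at 100 TPM or more, a small share of the bars for symbols, hold most of the listed TPM.

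The most abundant transcripts were those of the cytoskeleton, iron storage, translation, lysosomes and glycolysis. Tmsb4x, thymosin beta, which binds actin monomers, was first, at 5679, 5047 and 5090.4 TPM (chrX:167207094-167209218, mm10). It was followed by the ferritin chains that store iron, Fth1 at 4088, 3917 and 4087 TPM (chr19:9982646-9985111) and Ftl1 at 3904, 3704 and 3936 TPM (chr7:45457944-45459886). Eef1a1, the elongation factor that brings aminoacyl-tRNA to the ribosome, stood at 3662, 3677 and 3664 TPM and Actb, cytoplasmic actin, at 3606, 3623 and 3686 TPM. Their values overlapped, whereas Tmsb4x was above every other symbol in all 3 libraries. Ctsd, the lysosomal aspartic protease cathepsin D, came next among protein-coding symbols at 2615, 2637 and 2492 TPM. Pkm, pyruvate kinase, reached 2225, 2357 and 2259 TPM. Spp1, which encodes the secreted glycoprotein osteopontin, reached 2254, 2067 and 2032 TPM. Both were above 2000 TPM in every library.

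The rest of the 25 highest symbols were 8 ribosomal protein genes (among them Rplp1, Rpl8, Rpl32, Rps21, Rpl4, Rpl12 and Rpl7), the ribosome-bound scaffold Rack1, the actin regulators Pfn1 and Cfl1, the glycolytic genes Aldoa and Ldha, the intermediate filament gene Vim, the calcium-binding S100a4, the galectin Lgals1 and the microRNA symbol Mir6236. Mir6236, at 2859, 2572 and 2239 TPM, is an interval of 122 bases. Reads of a polyadenylated library over a hairpin interval do not measure the mature microRNA, and the sources used here do not state how reads matching several places were assigned. The same holds for Mir5114 at 988, 1099 and 1111 TPM over an interval of 60 bases.

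Ribosomal protein genes formed the largest block among the 50 families drawn up by symbol. Of 88 symbols, 84 were expressed and 81 reached 100 TPM, the median was 721 TPM, and together they held 11.8% ± 0.534 of the listed TPM. They made up 25 of the 59 symbols at 1000 TPM or more. Rplp1, a protein of the ribosomal stalk, led at 2263, 1982 and 2165 TPM, ahead of Rpl8 at 2119, 2028 and 2167 TPM and Rpl32 at 1962, 1849 and 2008 TPM. The values of Rplp1 overlapped those of both others, while Rpl8 lay above Rpl32. Counted as reads, with no division by length, the family held 4.1%.

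Messages of the translation machinery often begin with a C followed by an unbroken run of C and T bases, which ties their translation to growth signals. RefSeq promoters, given on GRCm38.p6 with 250 bases before and 50 after the start, matched 15827 of the 20870 protein-coding symbols at a start within 100 bases of the deposited transcript. The run was sought as a C followed by at least 5 bases that are C or T. It was read on the strand that reads as the RNA, from any C within 5 bases of the annotated start. It was present in 27 of 64 cytosolic ribosomal promoters (42.2%, 95% Wilson interval 30.9% to 54.4%) and in 10.2% of all matched promoters. Mitochondrial ribosomal proteins, which are built for another ribosome, had it in 4 of 68 (5.88%). Where the first C of the whole unbroken run had to lie within those 5 bases, an alternative chosen after seeing the data, it was 24 of the 64 cytosolic ribosomal promoters (37.5%) against 9.07% of all. The match is of letters only. The 4 ribosomal genes of highest level that hold it are shown first, then the 4 highest other genes at 1000 TPM or more, each from 20 bases before to 10 bases after the start, with the run in capitals from the matched C onward. In Ftl1 the run continues before the capitals, so it fails the stricter form.
Rps21 (chr2:180257359-180257388, plus strand): gcacttaccgaggacccgCCCTCCTgccca
Rpl12 (chr2:32961692-32961721, plus strand): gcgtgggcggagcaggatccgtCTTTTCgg
Rps27 (chr3:90213639-90213668, minus strand): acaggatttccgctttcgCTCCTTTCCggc
Rplp2 (chr7:141447631-141447660, plus strand): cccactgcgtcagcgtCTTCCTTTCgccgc
Ftl1 (chr7:45459877-45459906, minus strand): ggcctggggcacccctCCCTCCggagggtc
Eef1a1 (chr9:78481715-78481744, minus strand): cgtgtgctggctccgCCCTCTTCCCgaggg
Ctsd (chr7:142387818-142387847, minus strand): gacctctggctttaagctttgCTCTCTTCg
S100a4 (chr3:90603750-90603779, plus strand): cagattgttgggctctccccaaaCCTCTCT
Among the other genes, Eef1a1 is a classical member of this class of messages, while Ftl1, Ctsd and S100a4 matched by letters in genes with other functions.

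Several families that every cell needs were expressed nearly in full, and others in part. All 78 mitochondrial ribosomal protein symbols were expressed, with a median of 42.5 TPM and Mrpl12 highest at 185, 167 and 168 TPM. Of the respiratory chain, 36 of 37 NADH dehydrogenase subunits (median 128 TPM), 17 of 17 ATP synthase subunits (median 256 TPM) and 12 of 18 cytochrome c oxidase symbols (66.7%, median 144 TPM) were expressed. The proteasome had 37 of 39 subunits (median 125 TPM). These compare with 43.5% of all symbols expressed and a median of 0.246 TPM. In the vacuolar ATPase, the pump that acidifies lysosomes, 18 of 24 subunits (75%) were expressed, led by Atp6v0e at 374, 346 and 345 TPM.

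Some paralogs known from special tissues were low beside a broadly used relative. In 19 pairs of a broadly used gene and a restricted or alternative paralog, picked after the values were seen, the broad member was expressed in 19 and the other averaged under 1 TPM in 18. The proteasome subunit Psma7 stood at 532, 517 and 543 TPM, and its testis counterpart Psma8 was listed at 0 in all 3, which allows up to 0.0404 TPM from counting error over the libraries pooled. Cox6a1, a subunit of cytochrome c oxidase, stood at 385, 359 and 399 TPM against 0.777, 0.908 and 0.462 TPM for Cox6a2, the heart and muscle form. Ldha, lactate dehydrogenase, stood at 1498, 1528 and 1464 TPM with the testis form Ldhc listed at 0, and Pgk1, phosphoglycerate kinase, at 560.3, 567 and 554 TPM with Pgk2 listed at 0. For stearoyl-CoA desaturase, which makes monounsaturated fatty acids, Scd2 was at 586, 630.4 and 618 TPM and Scd1 at 0.132, 0.082 and 0.047 TPM. Among these pairs the exception was Rpl3l, the muscle paralog of Rpl3, at 0.987, 0.769 and 2.05 TPM. Pairs picked in this way do not show how often such paralogs are low. Cox7a1, the heart and muscle form of a cytochrome c oxidase subunit, was not among the pairs and stood at 18, 14.8 and 23.1 TPM.

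A low value was also listed for Sumo2, a broadly used ubiquitin-like modifier and a gene picked after its values were seen, at 0.512, 0.333 and 0.38 TPM. The handling of reads shared with retrocopies was not stated. The part of such reads in low values, such as those of Cd63 below, was not tested.

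The cells carried the core of a macrophage programme and were low in or without several markers of tissue macrophages. Of the 22 macrophage markers, 14 were expressed (63.6%), 5 were low and 3 were listed at 0. Lyz2, the lysozyme of myeloid cells, was highest at 1159, 1031 and 1017 TPM. Cd14, the lipopolysaccharide co-receptor, reached 644, 634 and 634 TPM, and Cd68, a lysosomal membrane glycoprotein, 617, 562 and 525 TPM. Lyz2 was above Cd14 and Cd14 above Cd68 without overlap. Csf1r, the receptor for macrophage colony-stimulating factor, stood at 240.3, 256 and 249 TPM, and Msr1, a scavenger receptor for modified lipoproteins, at 435, 444 and 403 TPM.

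Spi1 stood at 199, 194 and 211 TPM, Fcgr3, a receptor for IgG, at 217, 196 and 182 TPM, and Itgam, the alpha chain of the complement receptor CD11b, at 186, 187 and 177 TPM. Neighbours among these 3 overlapped, so their order is not settled. Adgre1, which encodes the standard mouse macrophage marker F4/80, was among the lowest expressed, at 2.15, 3.08 and 2.96 TPM, overlapping Ccr2, the monocyte chemokine receptor, at 2.87, 3.37 and 2.97 TPM. The mannose receptor gene Mrc1 was low at 0.312, 0.337 and 0.314 TPM, and Marco, a scavenger receptor of some tissue macrophages, at 0.20, 0.381 and 0.277 TPM. Cd163, the haemoglobin scavenger receptor, Vsig4, a complement receptor of Kupffer cells, and Ly6c2, of inflammatory monocytes, were listed at 0 in all 3 libraries. Cd63, a tetraspanin of lysosomes and exosomes, was listed at 0.143, 0.223 and 0.17 TPM, although 29 of the 30 lysosomal hydrolase and membrane genes were expressed and it was the exception.

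Ptprc, which encodes the leukocyte common antigen CD45, stood at 137, 156 and 146 TPM, and Sirpa, the inhibitory receptor for CD47, at 385, 399 and 393 TPM. Both were named after their values were seen.

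**Figure D2:**
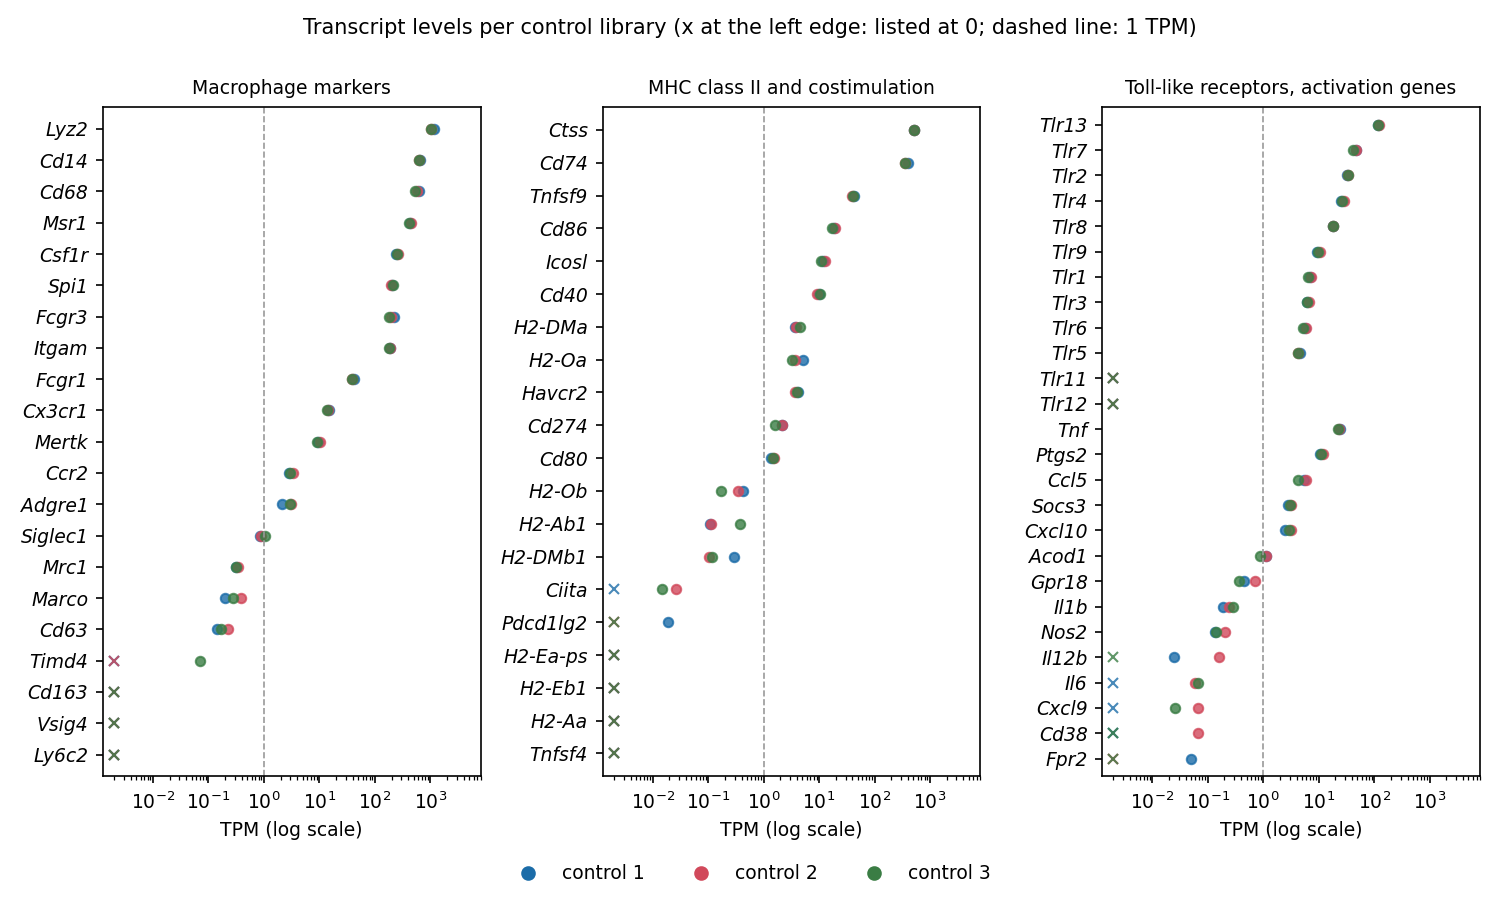
Transcript levels in TPM (log scale) of all macrophage markers but 1 (left), of MHC class II and costimulation genes (middle) and of Toll-like receptors followed by classical activation genes (right), with 1 point per control library. Crosses at the left edge are values listed at 0 and the dashed line marks 1 TPM. The 3 libraries lie on top of each other for expressed genes, and the class II chain genes H2-Aa and H2-Eb1 sit at 0 in all 3.

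PU.1 belongs to the ETS family, whose sites hold a purine-rich core. The letters GAGGAAG, on either strand in the 250 bases before the start, occurred in 6 of the 14 macrophage marker promoters matched (42.9%, 95% Wilson interval 21.4% to 67.4%), against 10.3% of all matched protein-coding promoters and 10.8% of those at 100 TPM or more. With 14 promoters the interval is wide. Of the 6 genes, 3 were expressed (Fcgr3, Itgam and Fcgr1) and 3 were low or listed at 0 (Mrc1, Marco and Ly6c2), so the letters were found on both sides of the limit. All 6 stretches of 30 bases are shown with the core in capitals. On its opposite strand the core is itself a run of C and T, but the start run above was sought only around the start.
Fcgr3 (chr1:171059392-171059421, minus strand): gagtccatttcCTTCCTCtttttgtagttc
Itgam (chr7:128062545-128062574, plus strand): gttttctcccgGAGGAAGgctacagagggc
Fcgr1 (chr3:96294007-96294036, minus strand): atggcaacttcCTTCCTCttttctaatctt
Mrc1 (chr2:14229367-14229396, plus strand): aaaagggacagCTTCCTCtgtcctcctttt
Marco (chr1:120505152-120505181, minus strand): gaagtgggtcaGAGGAAGatttcctggggt
Ly6c2 (chr15:75112061-75112090, minus strand): atgttggccctGAGGAAGtaagaaccaaaa
None of the 14 promoters reached an observed-to-expected CpG ratio of 0.6, against 51% of all matched promoters, and their median ratio was 0.195. None held a TATA box.

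Among 37 myeloid transcription factor genes, 24 were expressed, with a median of 13.2 TPM. Spi1 overlapped Id2, a helix-loop-helix inhibitor, at 199.7, 198 and 197 TPM, and Cebpb, a driver of myeloid and inflammatory genes, at 193, 179.7 and 216 TPM. These 3 were followed by the interferon regulatory factors Irf5 at 128, 134 and 138 TPM and Irf8 at 110.2, 117 and 119 TPM. Runx1 and Cebpa, needed earlier in blood development, were lower, at 17.1, 18.6 and 18.1 TPM and 13.6, 13.5 and 15.2 TPM. The erythroid factor Gata1 (0.023 TPM) and the progenitor factor Myb (0.0407 TPM) were low, and the granulocyte repressor Gfi1 and the factor Batf were listed at 0. Cebpe, also known from granulocytes, was expressed at 44.8, 44.5 and 52 TPM, above Runx1 and Cebpa in every library.

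Nfil3, the gene named as targeted in the other group of the series, was present in control cells at 29.5, 29.9 and 31 TPM. Of the 20 clock and D-box genes, 11 were expressed. Bhlhe41, a repressor of the clock, was highest at 28.8, 32.9 and 34.1 TPM, overlapping Nfil3. Arntl and Clock, the activating pair, stood at 11.8 and 5.64 TPM, and Per2, a repressor, at 0.143 TPM.

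Receptors for the colony-stimulating factors of macrophages were expressed. After Csf1r came the chains of the granulocyte-macrophage receptor, Csf2ra at 47.4, 45.5 and 47.8 TPM and Csf2rb at 18.8, 20.5 and 21.2 TPM. The ligand Csf1 was low among the expressed genes, at 2.38, 2.68 and 2.3 TPM. Il34, which encodes the other ligand of the Csf1r product, was listed at 0, and Flt3 and Kit, receptors of progenitors, averaged 0.0060 and 0.00433 TPM.

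The apparatus for binding and engulfing antibody-coated particles was well represented. Of 19 Fc receptor and signalling genes, 15 were expressed, with a median of 40.2 TPM. A pair of signalling adaptors stood above every receptor of the list: Fcer1g, the common gamma chain, reached 1087, 899 and 909 TPM and Tyrobp, its relative DAP12, 746, 656 and 650.3 TPM. Among receptors, the activating Fcgr3 overlapped the inhibitory Fcgr2b at 196, 170.3 and 170.3 TPM, and both stood above Fcgr4 at 77.6, 72.3 and 74.3 TPM and the high-affinity Fcgr1 at 42.7, 39 and 38.9 TPM. Syk, the kinase that acts on these adaptors, was at 15, 17.9 and 16.8 TPM. Fcer1a, the IgE receptor chain of mast cells, was listed at 0.

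Integrins, which hold cells to matrix and to each other, were expressed for 10 of 26 genes (38.5%), near the share over all symbols. Itgb1 was highest at 338, 366 and 345 TPM, then Itgam, then its partner Itgb2 at 157, 174 and 167 TPM, and Itga5, the fibronectin receptor chain, at 57.6, 60.7 and 58.2 TPM. Itgax, the CD11c chain of dendritic cells, was low at 0.269, 0.411 and 0.32 TPM, and Itgad was listed at 0.

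Receptors for apoptotic cells and modified lipids showed a split. Of 20 genes, 12 were expressed, and no neighbours in their order overlapped. Trem2, a lipid-sensing receptor, stood at 345, 335 and 338 TPM, Colec12, a collectin, at 215, 224 and 218 TPM and Lrp1, a large endocytic receptor, at 138, 160.2 and 148 TPM. Of the phosphatidylserine-sensing kinases, Mertk was at 9.61, 10.3 and 9.12 TPM, while Tyro3 and Axl averaged 0.0763 and 0.00467 TPM. Cd36, the fatty acid and oxidized lipid receptor, was low at 0.207, 0.195 and 0.156 TPM.

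Of 20 C-type lectin and siglec genes, 12 were expressed. Clec4d and Clec4e, which sense mycobacterial glycolipids, led at 218, 222 and 217 TPM and 169, 162 and 149 TPM. Clec10a, a galactose-binding lectin, stood at 79.7, 76 and 69.6 TPM, while Clec7a, the receptor for fungal beta-glucan, was lower at 11.4, 11.4 and 10.1 TPM.

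Complement genes ranged from abundant to unread. Of 26 genes, 10 were expressed (38.5%, near the share over all symbols). All chains of the recognition molecule C1q were high, at 146 ± 3.17 TPM for C1qa, 268 ± 14.8 TPM for C1qb and 295 ± 21.4 TPM for C1qc, and properdin, the stabilizer of the alternative pathway encoded by Cfp, stood at 291, 275 and 279 TPM. C1qc, Cfp and C1qb overlapped in turn, and C1qa lay below them. The anaphylatoxin receptors C3ar1 and C5ar1 reached 235, 245 and 235 TPM and 205, 195 and 179.6 TPM. C3, the central component, was at 15, 17.8 and 16.7 TPM. Of the early components C1ra averaged 8.44 TPM and several others were low, with C1s1, C2 and C4b of the classical pathway and Cfb and Cfd of the alternative pathway between 0.052 and 0.18 TPM. The genes of the membrane attack complex were also near the floor, with C6, C7, C9 and Hc between 0.0123 and 0.0257 TPM and C8a listed at 0.

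Toll-like receptors were expressed for 10 of 12 genes, and all neighbours in their order but Tlr1 and Tlr3 were separate. Tlr13, the endosomal sensor of bacterial ribosomal RNA, was highest at 117, 123 and 115 TPM. The single-stranded RNA sensor Tlr7 followed at 46.1, 47.3 and 41.8 TPM, then Tlr2, for lipoproteins, at 32.9, 34.2 and 34.1 TPM and Tlr4, for lipopolysaccharide, at 25.2, 28.4 and 26 TPM. Tlr8 stood at 18.1, 17.8 and 17.9 TPM and Tlr9, for unmethylated DNA, at 9.45, 10.6 and 9.69 TPM. Tlr5, for flagellin, was the lowest expressed, at 4.56, 4.26 and 4.25 TPM. Tlr11 and Tlr12, which sense profilin, were listed at 0.

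Of 18 partners of these receptors, 17 were expressed, and Cd14 stood far above the rest. Unc93b1, which carries endosomal receptors to their place, reached 139.8, 143 and 141 TPM. Ly96, the co-receptor that completes the Tlr4 complex, was at 19.8, 16.9 and 17.5 TPM, below Tlr4 in every library. The adaptor Myd88 stood at 42.6, 45.1 and 45.6 TPM and Ticam1, the adaptor of the interferon branch, at 12.7, 13.7 and 12.5 TPM. Only the serum protein gene Lbp was low.

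Cytosolic sensors were expressed for 12 of 14 matched genes. Samhd1, which breaks down deoxynucleotides, was highest at 64.6, 71 and 66.9 TPM. The DNA pathway genes Cgas and Tmem173, which encodes STING, stood at 23.2, 23.5 and 23.6 TPM and 28.3, 28.1 and 27.2 TPM, and the RNA sensors Ddx58 and Ifih1 at 8.71, 9.3 and 9.23 TPM and 6.51, 7.2 and 7.19 TPM.

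For the inflammasome, 17 of 23 genes were expressed, including the sensor Nlrp3 at 37.4, 38.6 and 38.7 TPM, the adaptor Pycard at 53.9, 51.1 and 54.8 TPM, the protease Casp1 at 90.9, 86.6 and 80.8 TPM and the pore-forming Gsdmd at 55.7, 56.8 and 55.5 TPM. RAW264.7 cells are known in the field for lacking the ASC protein that Pycard encodes. The transcript was present here, and the protein was not measured. The cargo differed: Il18 was expressed at 9.04, 7.31 and 8.29 TPM, while Il1b and Il1a were low at 0.19, 0.246 and 0.282 TPM and 0, 0.134 and 0.115 TPM.

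Secreted factors covered a wide range. Of 38 cytokine genes, 18 were expressed, 13 were low and 7 were listed at 0. After Spp1 came Grn, progranulin, at 509, 519.7 and 525 TPM and Mif, macrophage migration inhibitory factor, at 365, 318 and 362 TPM. Pdgfb and Tgfb1, growth factors that act on stromal cells, overlapped at 122, 134 and 136 TPM and 127, 129.6 and 134 TPM. Igf1 stood at 41.9, 41.3 and 39.4 TPM and Tnf, the early inflammatory cytokine, at 24.7, 23.6 and 22.7 TPM. The list held Il10 at 2.88, 1.93 and 1.57 TPM, Il6 at 0, 0.058 and 0.067 TPM and Vegfa at 0.115, 0.139 and 0.159 TPM. Il6 was within reach of single reads (0, 1 and 1 reads), and Il4, Il5, Il12a, Il17a and Il33 were listed at 0.

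Chemokine ligands were expressed for 15 of 32 genes (46.9%, near the share over all symbols), and a few of them were abundant. Pf4, platelet factor, was highest at 437, 373 and 423 TPM and Ccl9 next at 365, 335 and 322 TPM. The monocyte attractant Ccl2 stood at 249, 226 and 221 TPM, overlapping Ccl4 at 239, 199.7 and 223 TPM, which overlapped Ccl3 at 205, 182 and 178 TPM. Cxcl2, a neutrophil attractant, was lower at 6.37, 7.6 and 6.1 TPM, and its relatives Cxcl1, Cxcl3 and Cxcl5 were listed at 0. The interferon-induced Cxcl10 was at 2.5, 3.2 and 2.9 TPM. Of 26 chemokine and chemoattractant receptors, 8 were expressed (30.8%). The complement receptors led, then Cxcr4 at 18.5, 18.8 and 16.9 TPM and Cx3cr1 at 15, 14.2 and 13.6 TPM, while Ccr1 averaged 0.0657 TPM and Ccr7 was listed at 0.

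Receptor genes for type I and type II interferons were expressed, while that for interferon lambda and the ligands were at or near 0. Of 21 interferon ligand symbols, none was expressed and 17 were listed at 0, with 5 reads in all over the 3 libraries, and Ifnb1 had 0, 0 and 1 reads. The receptor chains Ifnar1 and Ifnar2 stood at 17.8, 18.7 and 18.4 TPM and 80.2, 80.1 and 82.6 TPM, the interferon gamma receptor chains Ifngr1 and Ifngr2 averaged 24.2 and 49.7 TPM, and Ifnlr1, the specific chain of the interferon lambda receptor, was listed at 0. The interferon regulatory factor Irf7 was at 11.7, 13.6 and 13.7 TPM. Interferon-stimulated families were expressed in part: 8 of 12 Ifi200-type genes (66.7%), led by Ifi202b at 79, 77.3 and 72.7 TPM, 9 of 18 Ifit and Oas genes (50%), led by Oas1a at 21.5, 21.8 and 21.7 TPM, and 8 of 21 interferon-inducible GTPases (38.1%), led by Irgm1 at 19.3, 19.3 and 20.4 TPM. Near-identical copies in the Ifi200 and Oas families can share reads, so single members are uncertain. Ifitm3, an antiviral membrane protein named after its values were seen, stood far above them at 1411, 1257 and 1304 TPM.

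Antigen presentation was one-sided. For class I, 19 of 20 genes were expressed with a median of 45.6 TPM. B2m, the light chain, reached 1429, 1296 and 1322 TPM, and the heavy chain genes H2-D1 and H2-K1 535, 541 and 543 TPM and 413, 397 and 423 TPM. The heavy chain genes are close copies, so their split is uncertain. The peptide transporter genes Tap1 and Tap2 stood at 16.2, 16.2 and 17.3 TPM and 36.4, 39.3 and 40.3 TPM, and the immunoproteasome subunit Psmb8 at 156, 161 and 169.6 TPM.

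For class II and costimulation, 11 of 20 genes were expressed, but the antigen-binding chains were not among them. H2-Aa and H2-Eb1 were listed at 0 in all 3 libraries, which allows up to 0.0606 and 0.0409 TPM from counting error, and H2-Ab1 was at 0.107, 0.111 and 0.382 TPM. Ciita, the master activator of class II genes, was listed at 0, 0.026 and 0.015 TPM. The invariant chain gene Cd74 was at 394, 359 and 351 TPM, and Ctss, the protease that trims it, at 516, 522 and 508 TPM. Of costimulatory genes, Cd86 stood at 18.7, 19.7 and 16.9 TPM, Cd40 at 9.95, 9.12 and 10.4 TPM and Cd80 at 1.35, 1.52 and 1.47 TPM.

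Of 14 classical activation genes, which mark macrophages stimulated by microbial products, 5 were expressed (35.7%), with a median of 0.372 TPM, so as a list they stood near all symbols. Tnf and Ptgs2, the inducible cyclooxygenase at 10.7, 11.9 and 10.9 TPM, led them. Nos2, the inducible nitric oxide synthase, was at 0.134, 0.209 and 0.14 TPM, and Acod1, which makes itaconate, was near the limit at 1.11, 1.12 and 0.877 TPM. Of 16 alternative activation genes, 6 were expressed (37.5%), also near the share over all symbols, led by Msr1, Trem2 and Clec10a, which are also on lists above. Mgl2, a lectin next to Clec10a, stood at 48.7, 44.2 and 40.4 TPM. Arg1, arginase, was low at 0.13, 0.135 and 0.257 TPM, Retnla averaged 0.041 TPM, and Chil3 was listed at 0.

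Of 26 eicosanoid and platelet-activating factor genes, 18 were expressed. Alox5ap, the helper of leukotriene synthesis, was at 188, 179 and 185 TPM and Alox5, the lipoxygenase it serves, lower at 5.04, 4.77 and 5.08 TPM. Pla2g4a, which frees arachidonic acid, stood at 139, 142 and 136 TPM, and Ptgs1, the constitutive cyclooxygenase, at 107, 111 and 109 TPM, above Ptgs2 in every library.

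RAW264.7 cells can be driven to osteoclasts with RANK ligand. Without it, 9 of 19 osteoclast genes were expressed (47.4%, near the share over all symbols). Tnfrsf11a, which encodes the receptor RANK, stood at 17.6, 16.5 and 16.1 TPM and Nfatc1, the master regulator, at 8.19, 9.09 and 8.84 TPM. Genes that serve resorption were uneven. Tcirg1, a subunit of the proton pump, was the highest of the list at 138, 136 and 136 TPM, the protease gene Mmp9 was at 35.3, 35.5 and 36.7 TPM and Car2, a carbonic anhydrase, at 22.2, 22.6 and 20.3 TPM. The protease gene Ctsk was at 0.040, 0.042 and 0.096 TPM, and Acp5, the tartrate-resistant acid phosphatase, was listed at 0.

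Lysosomal genes were among the strongest of the profile. Of 19 lysosomal protease and inhibitor genes, 13 were expressed, with a median of 86.7 TPM, and together they held 1.39% of the listed TPM. After Ctsd came Cst3, the inhibitor cystatin C, at 1301, 1107 and 1222 TPM, overlapping the carboxypeptidase gene Ctsz at 1116, 1076 and 1082 TPM, and then Ctsb at 858, 868 and 836 TPM. Ctsf and the neutrophil protease gene Ctsg were listed at 0. Among hydrolases and membrane proteins the median was 65.1 TPM, and Psap, the saposin precursor, led at 616, 634 and 618 TPM. Lamp1, a main membrane protein, stood at 509.6, 501 and 486 TPM. Gpnmb, a lysosomal glycoprotein named after its values were seen, reached 475, 479 and 453 TPM, and Mmp12, macrophage elastase, 489, 444 and 411 TPM.

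Iron handling, apart from ferritin, covered uptake, release and haem breakdown, with 15 of 18 genes expressed. Slc11a1, which exports metals from phagosomes and is mutated in many mouse strains, stood at 177, 189.9 and 187 TPM, Tfrc, the transferrin receptor, at 90.5, 95 and 90.6 TPM, and Hmox1, haem oxygenase, at 118, 117 and 111 TPM. Slc40a1, the iron exporter ferroportin, was at 16.1, 18.5 and 17.8 TPM. Hamp, its hormone ligand made by liver, was listed at 0.

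Lipid genes were uneven. Of 26 lipid handling genes, 18 were expressed. Lpl, lipoprotein lipase, was at 568, 583 and 562 TPM and the fatty acid carrier Fabp5 at 241, 238 and 229 TPM, above Fabp4 at 28.6, 27.3 and 24.8 TPM. Plin2, the coat of lipid droplets, stood at 189, 190.4 and 186 TPM. Abca1 and Abcg1, cholesterol exporters, were at 25, 30.2 and 27.3 TPM and 40.6, 45.4 and 43.7 TPM. Apoe, abundant in many tissue macrophages, was only at 2.35, 2.5 and 2.67 TPM, and Ch25h, an inflammatory hydroxylase, averaged 0.0157 TPM.

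Cholesterol synthesis was expressed in 21 of 23 genes, led by Fdps at 325, 325 and 334 TPM and Sqle at 210.4, 226 and 221 TPM. Dhcr7, which acts late in the pathway, was at 44.2, 45.1 and 43.9 TPM.

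Glycolysis held 1.78% of the listed TPM, with 26 of 34 genes expressed. Tpi1, which interconverts the triose phosphates, stood at 1196, 1195 and 1181 TPM and Gapdh at 1068, 958 and 943 TPM. The glucose transporter Slc2a1 was at 158, 174 and 164 TPM and the myeloid hexokinase Hk3 at 82.7, 86.6 and 90.3 TPM, above Hk1 at 50.7, 60.7 and 57.5 TPM and Hk2 at 25.1, 29.9 and 28.8 TPM. Lactate can leave through the products of Slc16a1, at 40.9, 42.1 and 43.7 TPM, and Slc16a3, at 3.55, 3.3 and 4.28 TPM. Slc2a2, the glucose transporter of liver and islets, and Pklr, the pyruvate kinase of liver and red cells, averaged under 0.1 TPM, and Slc2a4, the transporter of muscle and fat, averaged 0.615 TPM.

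Arginine and nitric oxide genes were expressed for 7 of 13 members. The citrulline recycling pair Ass1 and Asl stood at 22.9, 24.7 and 23.4 TPM and 52.4, 50.4 and 51.6 TPM, and Slc7a1, the basic amino acid transporter, at 27.7, 34.3 and 32.6 TPM. All 3 nitric oxide synthases were low. Of the phagocyte oxidase, Cyba and Cybb, its membrane subunits, stood at 486, 521 and 508 TPM and 102, 115 and 106 TPM, and Ncf1 and Ncf4, which encode cytosolic subunits, at 122 ± 2.97 TPM and 156 ± 2.33 TPM. Of 24 antioxidant genes, 20 were expressed with a median of 91.6 TPM, led by Gpx1 at 772, 675 and 701 TPM and Txn1 at 730.1, 675 and 703 TPM. Nqo1, a standard target of the factor encoded by Nfe2l2, was low at 0.247, 0.427 and 0.44 TPM, while Nfe2l2 itself was at 104, 107 and 106 TPM.

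The actin cytoskeleton list, which also held Vim and tubulin genes, was the strongest functional list, with 28 of 34 expressed and 4.23% of the listed TPM. Coro1a, a coronin of blood cells, stood at 1253, 1281 and 1322 TPM, Capg, which caps filaments, at 1101, 1116 and 1108 TPM and Lcp1, which bundles them, at 659.5, 729 and 697 TPM. The muscle actins Acta1, Acta2 and Actc1 averaged under 1 TPM.

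All of the 28 replication and mitosis genes listed were expressed, with a median of 126 TPM. Pcna, the replication clamp, stood at 690.0, 693 and 654 TPM, Top2a, topoisomerase, at 224, 254 and 249 TPM and Mki67, a marker of cycling cells, at 119, 146 and 138 TPM. In bulk RNA the share of cycling cells and the level per cell cannot be told apart. Of 68 histone cluster genes, 5 were expressed, led by Hist1h1c at 30.4, 26.9 and 29.1 TPM. Replication-dependent histone messages lack a poly(A) tail, and the part of poly(A) selection in this count was not tested.

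Of 31 genes of G1 control and the p53 pathway, 26 were expressed. Ccnd1, a G1 cyclin, stood at 175, 187 and 181 TPM and its kinase Cdk4 at 175, 167 and 184 TPM. Trp53 was at 120.0, 118 and 119 TPM and its target Cdkn1a at 88.5, 90.2 and 89.2 TPM. Abl1, the cellular gene related to the oncogene of the Abelson virus, was at 17.9, 20.8 and 19.4 TPM. Of the other inhibitors of the G1 kinases, Cdkn2c and Cdkn2d stood at 23.1, 24.9 and 24.6 TPM and 67.2, 66 and 64.8 TPM.

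The neighbouring tumour suppressor genes Cdkn2a and Cdkn2b had no read in any of the 3 libraries. They lay in a run of 9 symbols on chromosome 4, from 89274473 to 92147221 (mm10), that were all listed at 0. The other 7 were Gm12610, Dmrta1, Zfp352, Gm12633, Elavl2, Mir6402 and Izumo3, some of which are known from single tissues such as neurons, sperm or the early embryo. The flanking genes were expressed, Mtap before the run at 45.8, 47.8 and 48.7 TPM (chr4:89137370-89181090) and Tusc1 after it at 3.64, 3.49 and 3.49 TPM (chr4:93334148-93335511). For Cdkn2a the pooled reads allow up to 0.0804 TPM. The run was described after its values were seen, and RNA levels do not show whether the DNA is present.

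Immediate early and NF-kB genes were expressed for 22 of 27 members. Atf3, a stress factor, was highest at 182, 185 and 172 TPM, ahead of Jund at 144, 143 and 168 TPM and Junb at 83.3, 87.9 and 91.9 TPM. Fos stood at 7.25, 7.12 and 8.4 TPM and Egr1, which serum induces within minutes, at 0.497, 0.624 and 0.492 TPM. Nfkb1 was at 58, 65.9 and 65.2 TPM and its inhibitor Nfkbia at 48.5, 45.4 and 51.1 TPM. Of 21 chaperone and stress genes, 18 were expressed, led by Hsp90ab1 at 1068, 1175 and 1159 TPM and Hspa5, the main chaperone of the endoplasmic reticulum, at 929.7, 1009 and 992 TPM. The heat-inducible Hspa1a and Hspa1b were listed low, at 0.0167 and 0.227 TPM. They are close copies that can share reads, so these values are uncertain.

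Of 48 nuclear receptors, 17 were expressed (35.4%) and none reached 50 TPM. Nr1h2, the liver X receptor found in most tissues, led at 45.9, 44.5 and 46.8 TPM, while the macrophage form Nr1h3 fell just under the limit at 0.848, 0.843 and 1.01 TPM. Nr3c1, the glucocorticoid receptor, stood at 15.1, 17.1 and 17.8 TPM. Pparg was low at 0.396, 0.411 and 0.47 TPM.

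Markers of 14 other cell types were also counted. These lists and that of macrophage markers were chosen with earlier results of these data known, so the counts cannot check the label. Of 156 matched markers 13 were expressed, 92 were low and 51 were listed at 0. None of the NK cell, mast cell, epithelial, hepatocyte, neural or germ cell markers was expressed. The T cell list had 4 of 14: Cd5, a scavenger receptor family member, at 37.6, 40.4 and 38 TPM, Cd28, a costimulatory receptor, at 26.8, 30.9 and 28.7 TPM, Lat, an adaptor, at 3.8, 4.26 and 3.49 TPM and Lck, a kinase, at 2.59, 2.5 and 2.53 TPM. The T cell receptor complex genes Cd3e and Cd3d averaged 0.0303 and 0.0487 TPM, and Cd3g was listed at 0. Summed over the T cell list, the libraries held 70.9, 78.4 and 72.9 TPM.

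The B cell list had 1 of 15, the adaptor gene Blnk at 31.9, 32.1 and 31.7 TPM, with Cd79a at 0.188 TPM. Pf4 accounted for 411 of the 413 TPM summed over the erythroid and megakaryocyte list, whose globin genes were listed at 0. Close copies among the globin genes can share reads, so their values are uncertain. The dendritic cell list had Batf3 at 17.8, 16.2 and 17.5 TPM and Zbtb46 at 1.46, 1.54 and 1.32 TPM, with Flt3 and Clec9a under 0.01 TPM. Of neutrophil markers, S100a8 stood at 5.58, 4.43 and 5.85 TPM and Csf3r at 2.16, 1.82 and 2.12 TPM, while S100a9, the partner of S100a8, was listed at 0. In the fibroblast, endothelial and muscle lists Fn1, Egfl7 and Tnnt3 were expressed, averaging 4.17, 2.42 and 1.49 TPM. In each list with an expressed gene, other members were at or near 0. Which members define a cell type was not set beforehand.

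**Figure D3:**
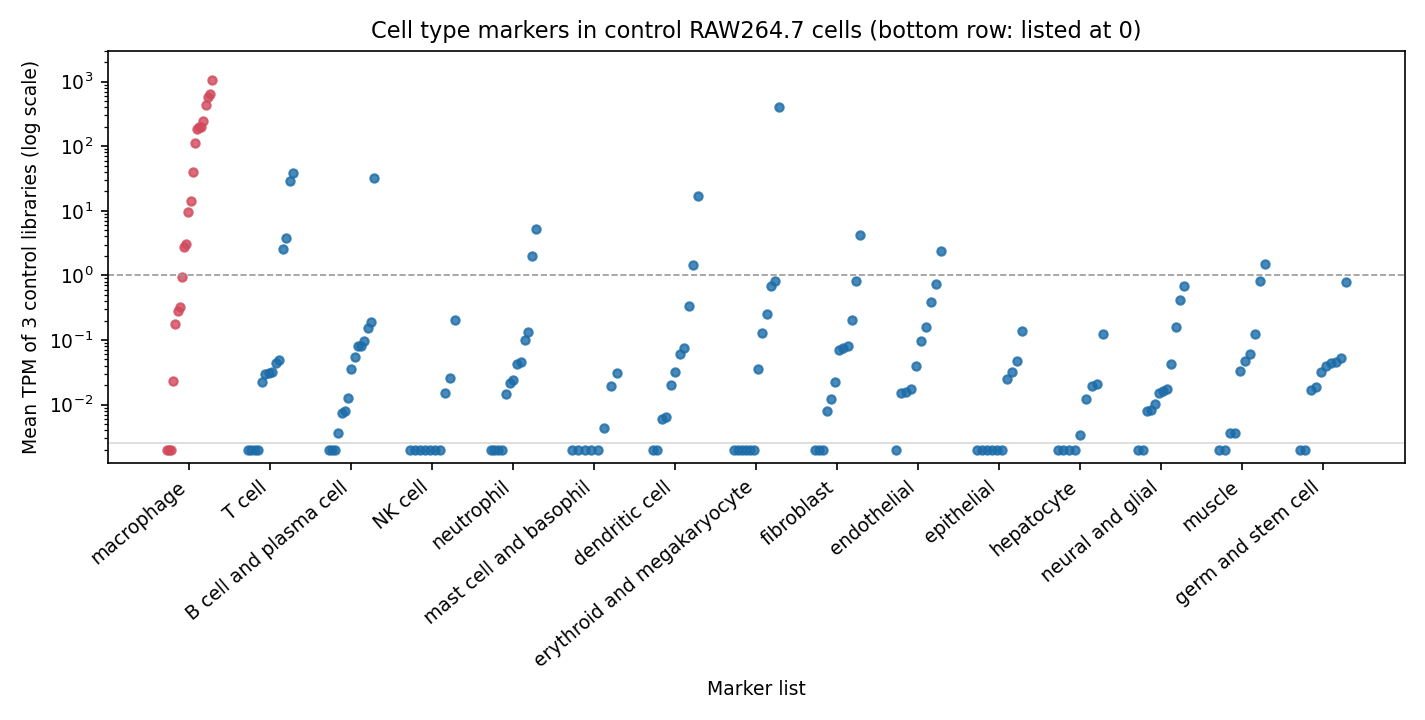
Mean TPM of the 3 control libraries (log scale) for each matched marker of 15 cell type lists, with 1 point per gene; points in the bottom row are listed at 0 and the dashed line marks 1 TPM. Macrophage markers spread up to 1069 TPM, and outside them only Pf4, at 411 TPM, passes 100 TPM.

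Several genes best known from development were present. Foxr2, a forkhead gene on the X chromosome (chrX:153118788-153132861), was the highest of 46 forkhead symbols, at 65.9, 72.4 and 71.4 TPM, above Foxk2 at 28.1, 30.6 and 30.1 TPM and the proliferation factor Foxm1 at 27.1, 30.6 and 28 TPM. Of 39 Hox genes, which set position along the body axis and also act in blood progenitors, 14 were expressed. They lay in 3 of the 4 clusters, with 6 of 10 in Hoxb, 4 of 11 in Hoxa, 4 of 9 in Hoxc and 0 of 9 in Hoxd. Hoxb7 led at 25.2, 23.8 and 26.5 TPM, then Hoxc6 at 14.1, 14.1 and 13.6 TPM and Hoxc4 at 9.02, 8.97 and 6.67 TPM.

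Wnt6 was the only expressed member of 19 Wnt ligands, at 16.3, 15 and 17.8 TPM. Of 9 Pax genes, Pax3, of neural crest and muscle, was at 11, 10.6 and 10.1 TPM and Pax6, of eye and brain, at 3.93, 3.67 and 4.34 TPM. Of 17 T-box genes, Mga, Tbx15 and Tbx20 were expressed, Tbx15 at 7.84, 8.14 and 8.13 TPM and Tbx20 at 4.24, 4.17 and 4.17 TPM. None of 19 Sox genes was expressed. Cacna1a, a neuronal calcium channel subunit, stood at 24.8, 26.6 and 25.1 TPM, the highest of 40 voltage-gated sodium and calcium channel symbols. Every gene given with values here was above 1 TPM in all 3 libraries.

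Transport and traffic families were expressed in part. Of 391 solute carriers, 179 were expressed (45.8%, near the 43.5% of all symbols). Slc15a3, which moves peptides out of the lysosome, led at 477, 471 and 466 TPM, above the mitochondrial ADP/ATP carriers Slc25a5 at 368, 348 and 364 TPM and Slc25a4 at 345, 326 and 333 TPM. Of 98 potassium channel symbols, 7 were expressed, led by the calcium-gated Kcnn4 at 64, 65.3 and 68.8 TPM. Of 75 Gpr receptors, 17 were expressed, led by Gpr84, a receptor for medium-chain fatty acids, at 169.6, 169.9 and 170.3 TPM. Among 59 Rab GTPases, which direct vesicles, 41 were expressed, led by Rab5c of early endosomes at 219, 214 and 205 TPM and Rab7 of late endosomes at 166, 165 and 163 TPM.

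The silent end of the profile was made of large tissue-restricted families. None of 1131 olfactory receptor symbols was expressed and 1012 were listed at 0, with 263 reads in all over the 3 libraries. The same held for 331 vomeronasal receptors (295 at 0), 35 bitter taste receptors (30 at 0), 66 defensins (54 at 0), 51 keratin-associated proteins (44 at 0), 27 kallikreins (19 at 0) and 22 major urinary proteins (20 at 0). Close copies, such as those among the major urinary proteins, can share reads, and the part of such reads in these values was not tested. Among 51 keratins only Krt10, at 2.65, 2.19 and 3.08 TPM, was expressed, and among 94 cytochrome P450 symbols 5 were, led by Cyp27a1, which oxidizes cholesterol, at 28.6, 28.3 and 28 TPM. Collagens were expressed for 3 of 44 symbols, led by Col4a5 at 6.51, 6.74 and 6.7 TPM. In the Ugt1a and gamma-protocadherin clusters the members share their last exons, so the 8 of 21 glucuronosyltransferases and 20 of 70 protocadherins that reached the limit cannot be told apart by such reads.

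**Figure D4:**
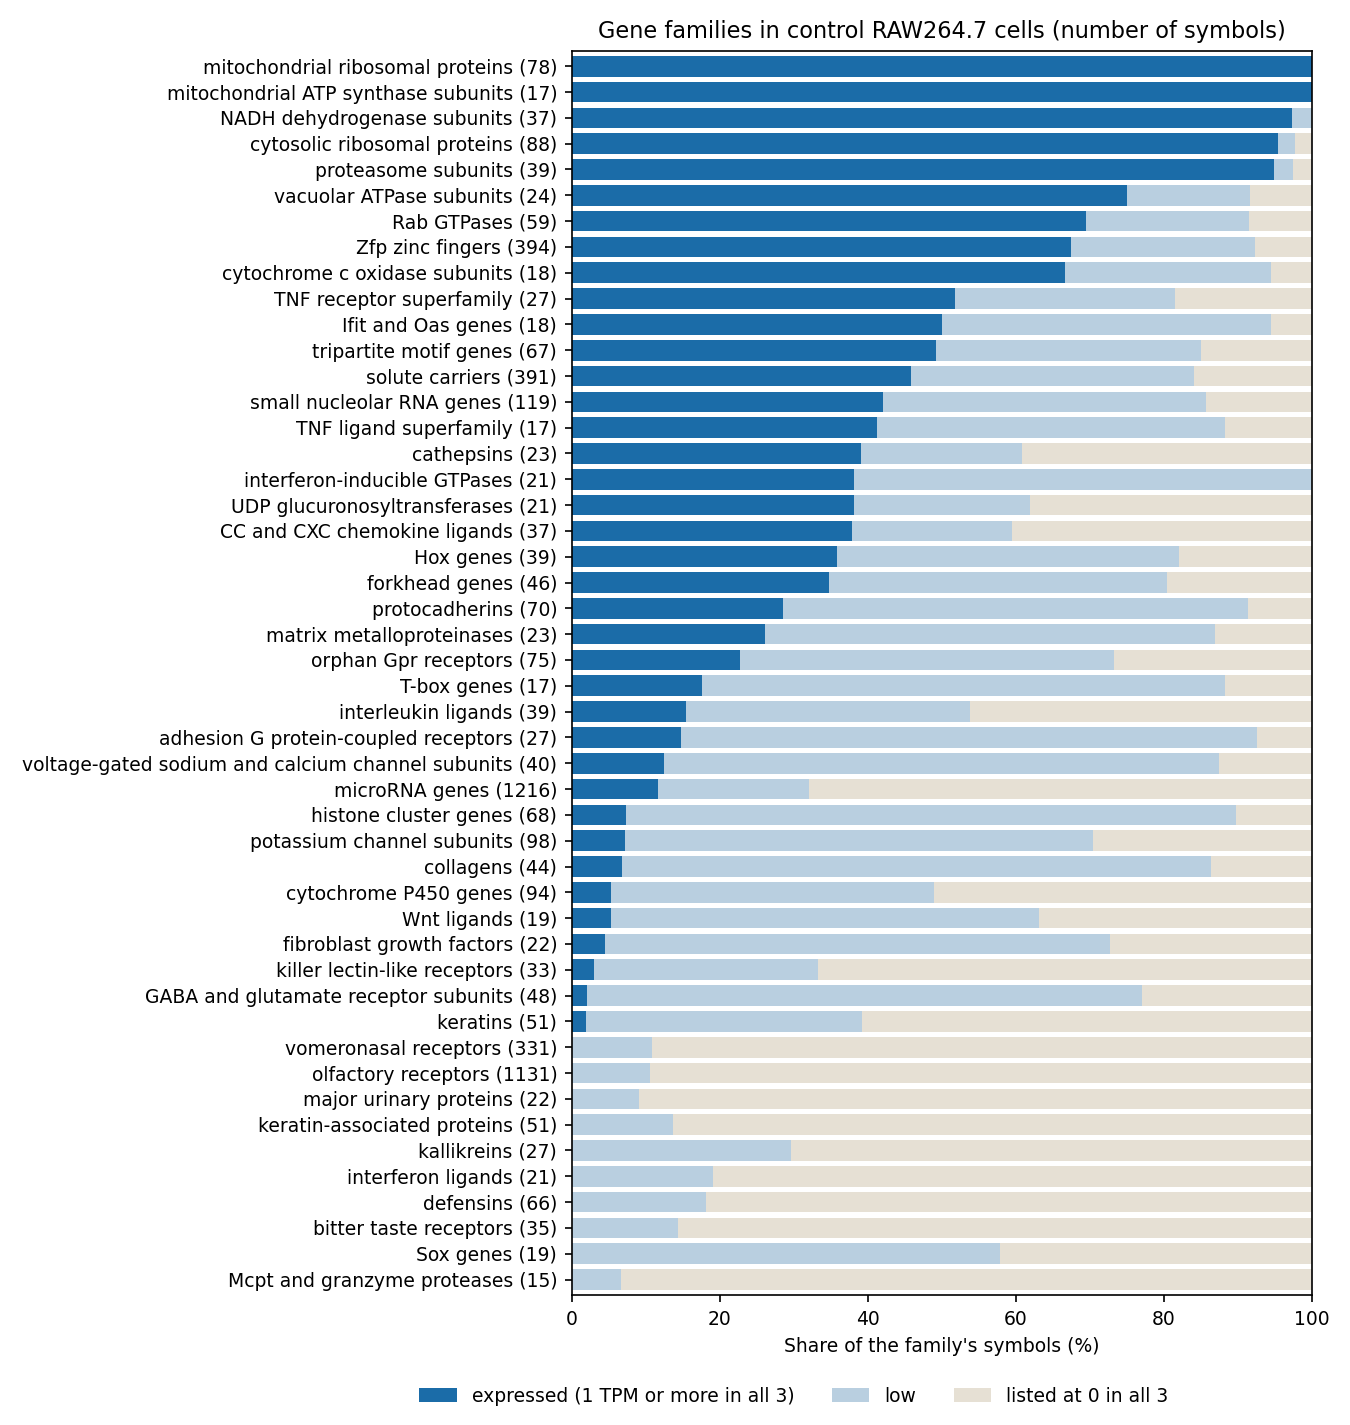
Share (%) of the symbols of each family that were expressed, low or listed at 0 in the 3 control libraries, for the families of at least 15 symbols (number of symbols in brackets), ordered by the share expressed. The mitochondrial ribosomal proteins stand at 100% and the olfactory receptors, with 0 of 1131, among the families with none.

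Y-linked genes were listed at 0 and Xist was present, in a line catalogued as male. All 9 Y-linked genes of the list were listed at 0, and X copies of some of them were expressed: Eif2s3y was 0 in all 3 while Eif2s3x was at 24.3, 26.1 and 25.2 TPM, and Ddx3y was 0 while Ddx3x was at 136, 159 and 147 TPM. Of 51 symbols on Y, 50 were listed at 0, and the other was Erdr1, at 102, 93.1 and 106 TPM, which lies in the region shared with X. Xist, the RNA that coats an inactive X, was at 82.5, 91.4 and 80.3 TPM, and Tsix, which overlaps it on the opposite strand, at 23.8, 27.9 and 24.5 TPM. Strand is not marked by the kit that the labels name, so reads of Xist and Tsix cannot be told apart, and transcript levels do not show which chromosomes the cells carry.

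Among nuclear long RNAs, Malat1, of nuclear speckles, stood at 225, 152 and 178 TPM and Neat1, of paraspeckles, at 52.4, 48.4 and 48.8 TPM. The small nucleolar RNA host Gas5 was at 95.5, 89.3 and 96.8 TPM, and the imprinted H19 was listed at 0.

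Promoter sequence changed with level in a way the TPM values did not use. A CpG ratio of 0.6 or more is part of the usual definition of a CpG island. It was found in 11.4% of 3682 promoters of genes listed at 0 and 32.9% of 4008 under 1 TPM. From 1 to 10 TPM it was 69.8% of 2610, and from 10 to 100 TPM 81.7% of 4700. Above that it was 81.3% of 788 and, at 1000 TPM and over, 76.9% of 39. The GC box GGGCGG, on either strand, rose from 17.1% at 0 to 69.5% between 10 and 100 TPM. Without olfactory and vomeronasal receptors the shares at 0 were 15.9% for the CpG ratio and 24% for the GC box.

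The TATA box was sought as TATAAA between 40 and 21 bases before the start, on the strand that reads as the RNA. It was more frequent at both ends. It was present in 5.84% of promoters listed at 0 (95% Wilson interval 5.13% to 6.64%), 0.638% of those from 10 to 100 TPM (0.447% to 0.91%) and 3 of 39 at 1000 TPM and over (7.69%, 2.65% to 20.3%), against 2.67% of all. The interval at the top is wide and overlaps those of the ranges at 0, under 1 TPM and 100 to 1000 TPM. Without olfactory and vomeronasal receptors the share at 0 was 7.86%. The start run of C and T was present in 13 of 39 promoters at 1000 TPM and over (33.3%, 20.6% to 49%) and in 8.91% to 12.7% of the other ranges. By the stricter form above it was 11 of the 39 (28.2%). Ribosomal protein genes made up 25 of the 59 symbols at 1000 TPM or more, and the share without them was not tested. The 4 highest genes with a TATA box are shown from 45 to 16 bases before the start, with the box in capitals.
S100a4 (chr3:90603725-90603754, plus strand): agggcctggcagggTATAAAtaggtcagat
Vim (chr2:13574266-13574295, plus strand): ttcctaacagtgtTATAAAagcagcgccct
Ppia (chr11:6415822-6415851, plus strand): cggggcccgaaccgggTATAAAggaagccg
Ckb (chr12:111672354-111672383, minus strand): caatggaatgaatgggcTATAAAtagccgc
S100a4 thus carried both the TATA letters and the start run.

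**Figure D5:**
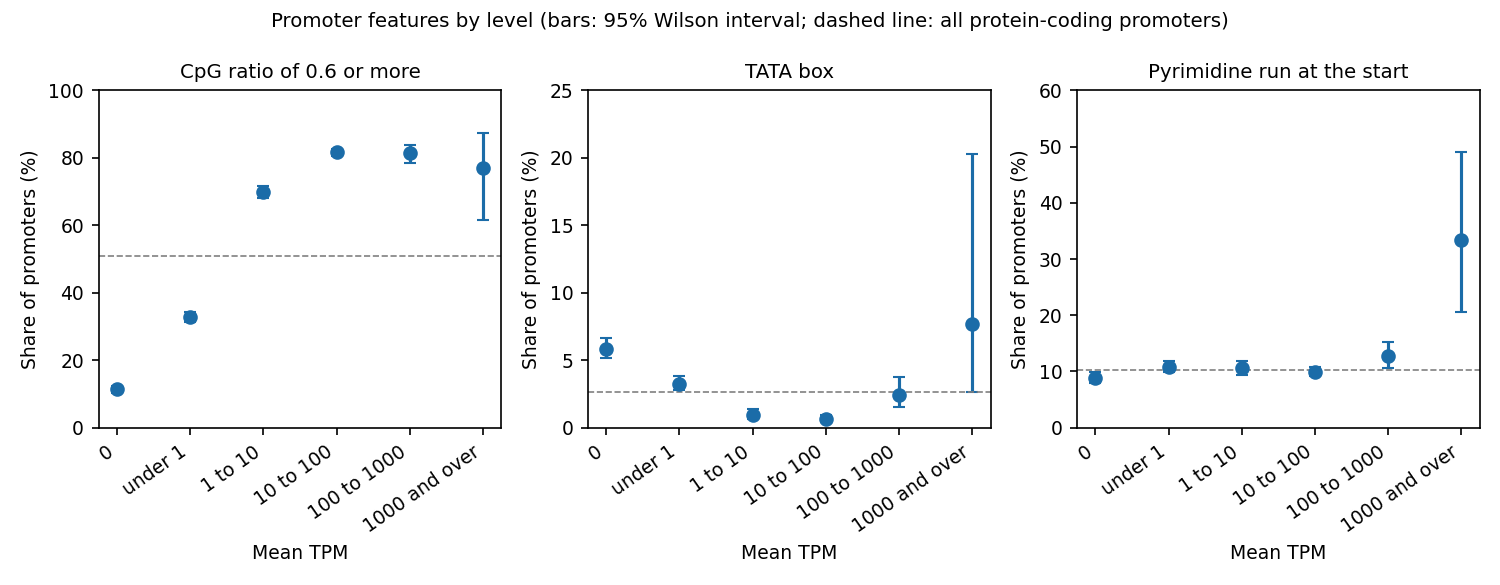
Share of promoters (%) with a CpG ratio of 0.6 or more, with a TATA box and with a run of C and T at the start, by range of mean TPM, for protein-coding genes with a matched RefSeq promoter. Bars are 95% Wilson intervals, which cover counting error only, and the dashed line is the share over all matched promoters. The CpG share climbs from 11.4% at 0 to 81.7% between 10 and 100 TPM, and the TATA share is lowest there, at 0.638%.

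Few genes differed between the replicates. Among symbols with a mean of at least 10 TPM, 26 of 7159 had a highest-to-lowest ratio of 1.5 or more. With predicted genes, clone-named loci and small RNAs set aside, 3 remained: Itgb3bp, a kinetochore protein, at 15.9, 12.6 and 10.1 TPM, Cox7a1, the heart and muscle form of a cytochrome c oxidase subunit, at 18, 14.8 and 23.1 TPM, and Klhl11, a ubiquitin ligase adaptor, at 10.3, 15.5 and 13.8 TPM. Others among the 10 of highest coefficient of variation included the metallothionein Mt2, Malat1 and Cd52, a small surface glycoprotein, each highest in control 1. Mt2 stood at 190.3, 134 and 133 TPM and Cd52 at 95.1, 69.8 and 75 TPM. At the other end Uimc1, a DNA repair protein, gave 18.5, 18.5 and 18.5 TPM, a coefficient of variation of 0.0849%, which is below the 4.2% that counting reads alone would give. Such closeness over 3 values is selected from 7159 genes and says nothing of its regulation.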

How the data were processed

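RNA was measured by sequencing in 6 libraries, of which the 3 labelled control were read. Per the submitters' processing notes, the mm10 build was used with HOMER 4.11.1, STAR 2.7.5a, DESeq2 and bcl2fastq, whose roles are not given. The authors deposited TPM values for 25124 symbols, each with 1 RefSeq transcript, its length and its mm10 coordinates, per the file headers. The sources used here do not state how strand, or reads that match several places, were handled. The listed TPM summed to 55.1% to 55.5% of 1000000 per library, so deposited values are lower than values rescaled over the listed symbols, by a factor of 1.81 on average.

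From the deposited TPM values, means, SD and counts were computed with pandas 2.3.3 in Python 3.11.15. TPM times length fell on whole multiples of 1 step per library: of 11959 to 13524 values checked in a library, 100% lay within 0.1 of a whole number, against 20% by chance. The reads so recovered (18110568, 18104946 and 15615639) give depth and floors: a count of 0 allows 3 reads over the pooled libraries, which covers counting error only. Read recovery was tested on simulated data. No column of per-sample values was without a label.

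Gene lists (55, of which 40 functional and 15 of cell types; 1011 of 1020 genes matched a symbol) and 50 symbol families were described by counts and medians, to be read against the share expressed and the median over all symbols. Members and lists were chosen with earlier results of these data known. Named genes were the 25 of highest mean, list members, up to 3 per family, and the 10 most and 5 least variable genes at 10 TPM or more (without predicted genes, clone names and small RNAs); the text says where others were chosen after their values were seen. Some genes that this rule names are counted in their lists but not reported here by name. Promoters came from RefSeq on GRCm38.p6, the assembly of mm10. One family pattern that also matched interferon receptors, and one that also matched microRNA host genes, were corrected after the files were read. Alternatives were other limits, a read minimum, rescaling and leaving out each library.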

Additional observations from a re-analysis of the deposited data

How the results depend on the processing

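No paired analysis was possible because only the control group was described and no test was made. The counts of expressed symbols (10934), of expressed genes in functional lists (592) and symbol families (1188) and of expressed macrophage markers (14) stayed within 1.5 times under limits of 0.5 and 5 TPM, the mean of the 3 libraries, rescaling, a minimum of 10 reads in every library and each left-out library. Leaving out 1 library gave 11001 to 11033 expressed symbols and 7380 to 8425 symbols listed at 0.

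Other cell type markers expressed numbered 13, but 5 with a limit of 5 TPM and 24 with at least 10 reads in every library. Symbols under 0.1 TPM in all 3 libraries numbered 10843, against 6960 at exactly 0. The 100 most abundant genes held 23.4% of listed TPM, while the 100 highest without cytosolic ribosomal proteins held 21.6% and the 100 symbols with most reads held 16.1% of reads, which need not be the same genes. With 1 library left out the share of TPM was 23.02% to 23.65%. Ribosomal proteins held 11.8% of TPM and 4.1% of reads (11.5% to 12.03% with 1 library left out). Symbols with a ratio of at least 1.5 between libraries numbered 26 at a mean of 10 TPM, 2 at 50 TPM and 386 at 1 TPM. The lowest correlation was 0.9974, and 0.9925 with a pseudocount of 0.1. From 100 TPM to 10 TPM as the limit of high level, the TATA share fell from 2.66% to 0.941% and that of the start run from 13.7% to 10.51%. Of 54 lists besides the macrophage markers, 11 moved by over 1.5 times with a limit of 5 TPM, as did 16 of 50 families, mostly those with few expressed members.

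Depth limits the low end: 5091 symbols had 1 to 9 reads over the 3 libraries, so low and 0 are not separate states there.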
